A study of Mus musculus with 8 samples.

Results

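The genes described here are 8 channels and pumps of alveolar fluid clearance, the removal of liquid from the air spaces of the lung. They are *Scnn1a*, *Scnn1b* and *Scnn1g* of the epithelial sodium channel, *Atp1b1* of the sodium pump, the aquaporins *Aqp1*, *Aqp4* and *Aqp5*, and the chloride channel *Cftr*. They were taken by symbol, and all 8 were found among the 55416 genes listed in the count files. All 8 also passed the expression filter, which left 18560 genes for testing.

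In the alveolus, sodium enters epithelial cells through the epithelial sodium channel on the side facing the air, and the sodium pump moves it out on the opposite side. Water follows the salt, in part through aquaporins, while *Cftr* carries chloride and bicarbonate. In lung injury with edema, the balance between liquid leaking in and liquid being cleared is a long-standing question.

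Lung RNA was sequenced from 3 control mice (numbered 1, 2 and 4), 3 mice given lipopolysaccharide (LPS; mice 1, 6 and 7) and 2 mice given LPS and YW3-56 (dual treatment; mice 2 and 5). YW3-56 blocks the protein arginine deiminases, enzymes that turn arginine residues into citrulline. According to the methods of the study the animals were female C57BL/6J mice, 6 to 8 weeks old. LPS, a bacterial endotoxin, was injected at 35 mg/kg, and YW3-56 was given at 10 mg/kg 30 min earlier, dissolved in DMSO. Control mice received DMSO by the tail vein and then saline into the peritoneum. The methods do not name a DMSO injection for the LPS group. DMSO and YW3-56 therefore cannot be told apart in the comparison of both LPS groups. In that of LPS with control lungs, LPS and the lack of DMSO cannot be told apart either. A lobe from one side of the lung was taken about 24 h later. In the survival experiment of the study, median survival was shorter than 24 h with this LPS dose. With YW3-56 before LPS it was longer. The part of survival in the differences between groups was not tested. The methods describe 3 mice per group, while a figure legend of the study and the labels give 2 for the dual treatment. Total counts per library ran from 19061949 to 20908608.

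Expression is given as CPM, read counts per 1000000 after TMM scaling, in single mice or as mean ± SD (n = 3 control, 3 LPS and 2 dual-treated mice). The sodium channel and *Cftr* are mainly epithelial, so the tissue was first checked against marker genes. Markers of type 2 alveolar cells (8 genes, *Sftpc* the most abundant) summed to 38835, 32594 and 40789 CPM in control mice 1, 2 and 4, to 29205, 20925 and 17141 CPM in LPS mice 1, 6 and 7, and to 21450 and 31768 CPM in dual-treated mice 2 and 5. Markers of type 1 alveolar cells (8 genes, *Ager* the most abundant) summed to 6689, 6318 and 6520 CPM in control mice, to 6011, 4828 and 3670 CPM in LPS mice, and to 3485 and 4646 CPM in dual-treated mice. Every library thus held abundant alveolar RNA. Both sums were lower in all 3 LPS mice, and in both dual-treated mice, than in any control mouse. In bulk lung, fewer cells of a type and less RNA per cell cannot be told apart.

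LPS mice 6 and 7 stood apart from the other 6 libraries in markers of squamous epithelium and skeletal muscle, whose origin was not tested. Markers of squamous epithelium (7 of 8 listed symbols found, *Krt13* the most abundant) summed to 750 and 2016 CPM in LPS mice 6 and 7, against 0.653 CPM in LPS mouse 1, 5.58 to 11.2 CPM in control mice and 9.71 and 23.6 CPM in dual-treated mice. Markers of skeletal muscle (8 genes, *Acta1* the most abundant) summed to 450 and 1187 CPM in the same 2 mice, against 16.6 CPM in LPS mouse 1, 9.15 to 18.9 CPM in control mice and 4.90 and 7.16 CPM in dual-treated mice. LPS mouse 1 was below every other library for squamous markers and within the control range for muscle. Results of the 8 genes are therefore also given with LPS mouse 1 as the only LPS library where a call was lost or gained without mice 6 and 7.

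In the comparison of LPS with control lungs, 4 of the 8 rose (*Scnn1a*, *Scnn1g*, *Atp1b1*, *Aqp4*) and 2 fell (*Aqp5*, *Cftr*). These calls were made at an adjusted p under 0.05 by edgeR's quasi-likelihood test. Among all genes tested, 32.6% were called higher and 33.9% lower, so the counts of members are read against a background in which most genes were called. Groups without overlap were common too, since all LPS mice lay above all control mice in 34.7% of genes and below them in 37.3%. Dual-treated mice lay above LPS mice in 37.9% and below them in 32.9%, and above control mice in 26.1% and below them in 26.2%. The median log2 fold change (log2FC) of the 8 genes was 0.33, beside -0.01 over all genes. When YW3-56 was given before LPS, 4 of the 8 were lower than with LPS alone (*Scnn1a*, *Scnn1g*, *Atp1b1*, *Aqp4*) and 3 higher (*Aqp5*, *Cftr*, *Scnn1b*). The shares over all genes were 27.4% lower and 31.7% higher, and the medians were -0.18 for the 8 genes and 0.06 over all genes. Each of the 6 genes called with LPS was thus called in the opposite direction in the second comparison, as were 9261 (75%) of all 12346 genes called with LPS. The 2 comparisons share the LPS mice, so opposite signs are in part built into them.

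Between dual-treated and control lungs, 0 of the 8 genes were called higher and 0 lower by edgeR, against 9.13% and 7.02% of all genes. At an unadjusted p under 0.05 the counts were 1 higher (*Scnn1b*) and 1 lower (*Cftr*), and DESeq2 called 0 higher and 1 lower (*Cftr*). The median log2FC was 0.03 for the 8 genes and 0.004 over all genes.

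**Figure D1:**
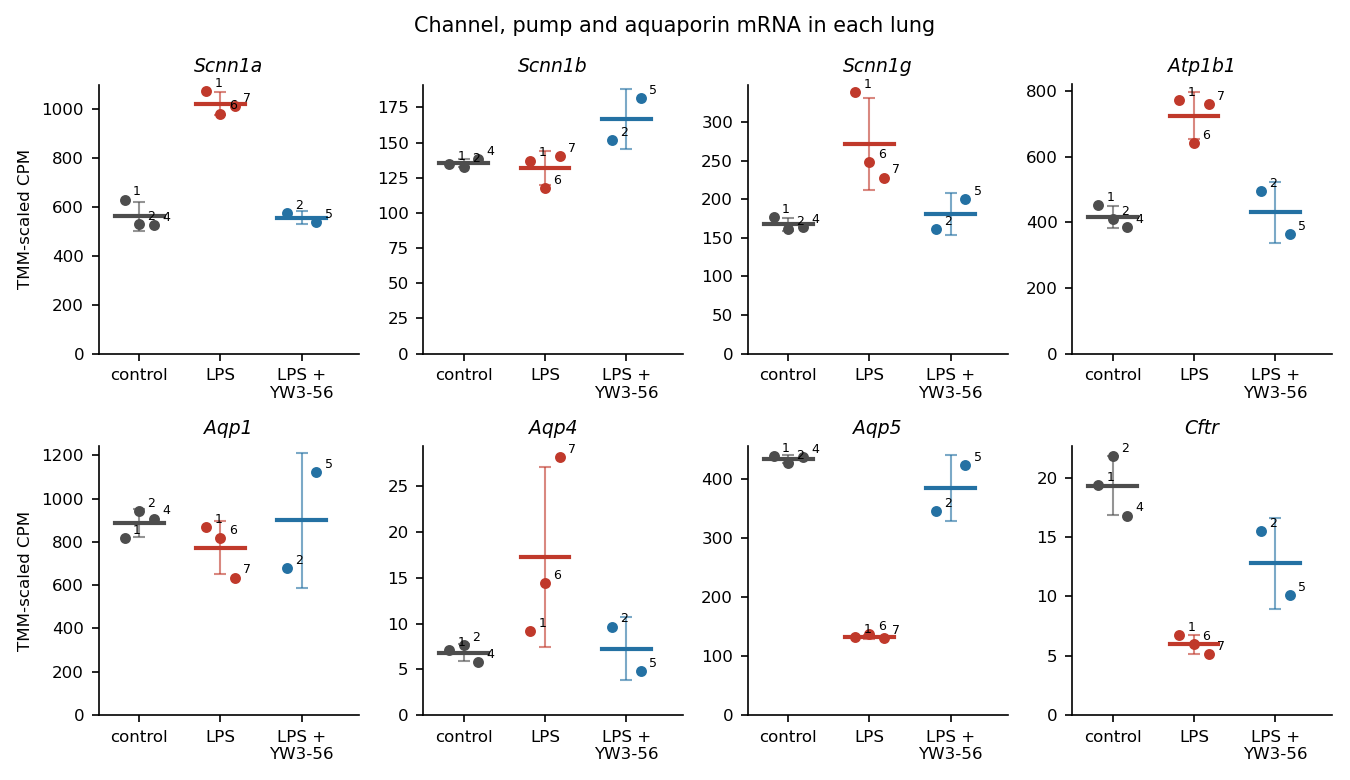
TMM-scaled CPM (vertical axes, from 0) of the 8 genes in control, LPS and dual-treated lungs; points are single mice with their numbers, lines are group means and bars are 1 SD. *Aqp5* lies between 130 and 136 CPM in the LPS mice and above 344 CPM in the other 5, while *Aqp4* reaches 28.2 CPM in LPS mouse 7.

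The epithelial sodium channel is built from α, β and γ subunits. *Scnn1a* (ENSMUSG00000030340; GRCm39 chromosome 6, 125297622 to 125321906) encodes the α subunit, without which little channel activity forms. Its level was 631, 530 and 526 CPM in control mice 1, 2 and 4, 1074, 983 and 1013 CPM in LPS mice 1, 6 and 7, and 576 and 538 CPM in dual-treated mice 2 and 5. All 3 LPS mice were above the other 5 lungs, and the dual-treated mice lay within the control range. The rise with LPS was 1.82-fold (log2FC 0.86, SE 0.11, adjusted p = 0.000123). Dual-treated lungs were lower than LPS lungs by a log2FC of -0.88 (SE 0.13, adjusted p = 0.000376). Against control their log2FC was -0.01, with a 95% interval from -0.30 to 0.27.

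*Scnn1g* (ENSMUSG00000000216; chromosome 7, 121333545 to 121367755), the γ subunit, which carries sites where proteases activate the channel, stood at 177, 162 and 164 CPM in control mice, at 340, 248 and 228 CPM in LPS mice and at 162 and 201 CPM in dual-treated mice. The LPS mice were above both other groups, with mouse 1 the highest, and dual-treated mouse 5 was above the controls. *Scnn1g* rose 1.62-fold with LPS (log2FC 0.70, SE 0.16, adjusted p = 0.0031). It was lower with the dual treatment than with LPS alone (log2FC -0.59, SE 0.18, adjusted p = 0.0172), a call that was lost without dual-treated mouse 2 (-0.46, adjusted p = 0.0826) and with library size as the only scaling (-0.25, adjusted p = 0.153). With LPS mouse 1 as the only LPS library the log2FC was -0.91. Over 15 alternative fits the adjusted p of that comparison ran from 0.00143 to 0.153.

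The β subunit did not follow. *Scnn1b* (ENSMUSG00000030873; chromosome 7, 121463946 to 121517737) had 135, 133 and 138 CPM in control mice, 137, 118 and 140 CPM in LPS mice, and 152 and 182 CPM in dual-treated mice. Control and LPS mice overlapped, and both dual-treated mice were above all other lungs. The log2FC with LPS was -0.04 (95% interval -0.28 to 0.20, adjusted p = 0.762). With library size as the only scaling it was -0.32 and called lower (adjusted p = 0.0235, with a range over 15 alternatives from 0.0235 to 0.989). Dual-treated lungs were above LPS lungs by a log2FC of 0.34 (SE 0.12, adjusted p = 0.0321). That call was lost under 9 of 15 alternatives, while the adjusted p over all of them ran from 0.00102 to 0.269. It was lost, with these log2FC, by DESeq2 (0.29), with RLE scaling (0.28), in a fit of only the 2 groups compared (0.32), without control mouse 1 (0.34), control mouse 2 (0.34), control mouse 4 (0.31), LPS mouse 6 (0.26) or dual-treated mouse 5 (0.18), and without LPS mice 6 and 7 (0.27, adjusted p = 0.145).

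Subunit levels can be set side by side per kilobase of exon, where scaling between libraries cancels. The ratio of *Scnn1a* to *Scnn1b* per kilobase was 3.34, 2.85 and 2.71 in control mice, 5.58, 5.95 and 5.15 in LPS mice, and 2.71 and 2.11 in dual-treated mice. Every LPS mouse had a higher α to β ratio than any other lung (exact two-sided permutation p = 0.1 against control, the smallest that 3 against 3 mice allow). The ratio of *Scnn1g* to *Scnn1b* was 1.21, 1.12 and 1.09 in control mice, 2.28, 1.94 and 1.50 in LPS mice, and 0.980 and 1.02 in dual-treated mice. Again the LPS mice did not overlap the others (exact permutation p = 0.1 against control). The ratio of *Scnn1a* to *Scnn1g* averaged 2.60 ± 0.15 in control lungs, 2.99 ± 0.50 with LPS and 2.42 ± 0.49 with the dual treatment, with overlapping groups.

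In the sodium pump a β subunit brings the enzyme to the membrane. *Atp1b1* (ENSMUSG00000026576; chromosome 1, 164264678 to 164285957, minus strand), the β1 subunit, had 452, 411 and 385 CPM in control mice, 772, 641 and 761 CPM in LPS mice, and 496 and 364 CPM in dual-treated mice. The LPS mice were above all others, and the dual-treated mice lay on either side of the control range. With LPS it rose 1.74-fold (log2FC 0.80, SE 0.14, adjusted p = 0.000818). It was lower with the dual treatment than with LPS alone (log2FC -0.75, SE 0.16, adjusted p = 0.00321), and against control its log2FC was 0.05 (95% interval -0.31 to 0.40). Its exons share 587 bases with *Nme7* on the opposite strand, which had 6.87 CPM in control and 5.99 CPM in LPS lungs.

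Other pump genes were described from a list of 10 further subunits, all of which were tested. With LPS 4 rose and 5 fell, and the list's median log2FC was 0.04. Against LPS alone, 5 were higher and 1 lower with the dual treatment (median 0.56), and against control 3 were higher and 2 lower (median -0.15).

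*Atp1b3*, another β subunit, had a different course. Its CPM was 182, 180 and 177 in control mice, 376, 371 and 327 in LPS mice, and 362 and 293 in dual-treated mice. The dual-treated mice were above all controls and overlapped the LPS mice. *Atp1b3* rose with LPS (log2FC 0.99, SE 0.11, adjusted p = 4.19e-05), and dual-treated lungs were above control by 0.86 (SE 0.12, adjusted p = 0.00181). The ratio of *Atp1b1* to *Atp1b3* per kilobase was 1.71, 1.57 and 1.49 in control mice, 1.41, 1.19 and 1.60 in LPS mice, and 0.943 and 0.856 in dual-treated mice, the last below all others.

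Of the regulators of the pump from the FXYD family, *Fxyd5* and *Fxyd1* moved apart. *Fxyd5* had 74.1, 54.0 and 66.4 CPM in control mice, 114, 144 and 105 CPM in LPS mice, and 164 and 164 CPM in dual-treated mice. The 3 groups did not overlap. It rose with LPS (log2FC 0.90, adjusted p = 0.00046) and was above control with the dual treatment (log2FC 1.34, adjusted p = 0.000747). Dual-treated lungs were above LPS lungs by a log2FC of 0.44, a difference called under only 7 of 15 alternatives. *Fxyd1*, known as phospholemman, had 46.0, 46.5 and 43.8 CPM in control mice, 15.1, 18.3 and 12.0 CPM in LPS mice, and 24.9 and 35.9 CPM in dual-treated mice. Its groups also did not overlap, with the dual-treated mice in between. It fell with LPS (log2FC -1.59, adjusted p = 3.94e-05) and was higher with the dual treatment than with LPS alone (log2FC 1.01, adjusted p = 0.00159). *Fxyd6* had a log2FC of -0.46 with LPS, called lower under 10 of 15 alternatives.

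Aquaporins are water channels. *Aqp5* (ENSMUSG00000044217; chromosome 15, 99488532 to 99492710) is the aquaporin of type 1 alveolar cells and of airway glands. It had 437, 426 and 436 CPM in control mice, 132, 136 and 130 CPM in LPS mice, and 345 and 423 CPM in dual-treated mice. Every LPS mouse was far below the other 5 lungs, and dual-treated mouse 5 was just under the controls, with mouse 2 further below. *Aqp5* fell 3.26-fold with LPS (log2FC -1.71, SE 0.11, adjusted p = 1.67e-06). It was 2.89-fold higher with the dual treatment than with LPS alone (log2FC 1.53, SE 0.11, adjusted p = 9.42e-06). Against control the dual-treated log2FC was -0.17 (95% interval -0.43 to 0.09, adjusted p = 0.352).

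The markers of type 1 cells did not move as 1 group. With LPS 2 of the 8 rose and 4 fell (median log2FC -0.56), and with the dual treatment 3 were higher and 3 lower than with LPS alone (median -0.03). The ratio of *Aqp5* to *Ager*, a receptor abundant in type 1 cells, was 0.147, 0.153 and 0.147 per kilobase in control mice, 0.0428, 0.0534 and 0.0788 in LPS mice, and 0.277 and 0.236 in dual-treated mice. LPS mice were below control and dual-treated mice above it, without overlap. The outcome depended on the marker. Of the ratios of *Aqp5* to each of the 8 markers, 5 were lower in all LPS mice than in any control mouse, 2 were higher and 1 overlapped. In dual-treated mice 5 were above control and 3 overlapped it, and against LPS mice 6 were higher, 1 was lower and 1 overlapped. The ratio to *Rtkn2* rose from 5.09 ± 0.30 in control lungs to 91.3 ± 18.4 with LPS, and that to *Akap5* from 2.77 ± 0.10 to 7.55 ± 1.89, since both markers fell more than *Aqp5* did.

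*Aqp1* (ENSMUSG00000004655; chromosome 6, 55313068 to 55325540), the water channel of lung capillaries and red cells, had 817, 941 and 908 CPM in control mice, 869, 817 and 635 CPM in LPS mice, and 681 and 1121 CPM in dual-treated mice. The groups overlapped, and the dual-treated mice held both the second lowest and the highest value of the 8. No comparison called it, with a log2FC of -0.20 with LPS (95% interval -0.63 to 0.23, adjusted p = 0.375) and 0.22 for the dual treatment against LPS (95% interval -0.26 to 0.70, adjusted p = 0.396). Without dual-treated mouse 2 the second was 0.51 and called higher (adjusted p = 0.0446), and without dual-treated mouse 5 it was -0.21 (adjusted p = 0.402). With library size as the only scaling both were called, at -0.50 (adjusted p = 0.0263) and 0.55 (adjusted p = 0.0282). Over 15 alternatives the adjusted p ran from 0.0263 to 0.936 for the first and from 0.0282 to 0.899 for the second.

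The cells that carry *Aqp1* were read from their own markers. Of 8 endothelial markers, with *Cdh5* the most abundant, 0 rose and 5 fell with LPS by edgeR, and the sum was 3042 ± 199 CPM in control lungs, 1962 ± 269 CPM with LPS and 2879 ± 63 CPM with the dual treatment. Against control 1 of the 8 was higher and 3 lower with the dual treatment (median log2FC -0.46). The 1 higher was *Pecam1* (657, 228 and 993 CPM in the control, LPS and dual-treated groups), which weighs on the sum. Red cell markers (6 genes, *Hbb-bs* the most abundant) summed to 1737, 3917 and 2788 CPM in control mice, 3304, 1894 and 1481 CPM in LPS mice, and 428 and 382 CPM in dual-treated mice. All 6 were lower with the dual treatment than with LPS alone. *Aqp1* itself was called in neither comparison.

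*Aqp4* (ENSMUSG00000024411; chromosome 18, 15522451 to 15544039, minus strand), a water channel of astrocytes, fast skeletal muscle and some epithelia, was the lowest of the 8 genes per length in control lungs. It had 7.14, 7.60 and 5.75 CPM in control mice, 9.20, 14.4 and 28.2 CPM in LPS mice 1, 6 and 7, and 9.67 and 4.79 CPM in dual-treated mice. Only LPS mice 6 and 7 were clearly above the rest, while LPS mouse 1 was above all control mice but below dual-treated mouse 2. *Aqp4* rose with LPS (log2FC 1.34, SE 0.40, adjusted p = 0.0136) and was lower with the dual treatment than with LPS (log2FC -1.26, SE 0.45, adjusted p = 0.0366). Both calls rested on LPS mouse 7. Without it the values were 0.80 (adjusted p = 0.0515) and -0.72 (adjusted p = 0.108), and without LPS mice 6 and 7 they were 0.43 (adjusted p = 0.355) and -0.36 (adjusted p = 0.484). The first call was also lost without control mouse 4 (1.23, adjusted p = 0.0541), and the second without control mouse 1 (-1.26, adjusted p = 0.0522) or dual-treated mouse 5 (-0.86, adjusted p = 0.208), with library size as the only scaling (-0.96, adjusted p = 0.11) and in a fit of only the 2 groups compared (-1.28, adjusted p = 0.069). The adjusted p over 15 alternatives ran from 0.000144 to 0.355 for the first and from 0.00165 to 0.484 for the second.

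Mice 6 and 7 are those with high skeletal muscle and squamous markers, in the same order as *Aqp4*. All 7 tested muscle markers and 6 of 7 squamous markers were called higher with LPS by edgeR, but these calls do not describe LPS mouse 1. Its muscle sum lay within the control range and its squamous sum below it. *Sprr3* and *Krtdap*, for example, had 0 counts in control mice and in LPS mouse 1. They passed the expression filter only through other mice, so that their calls are in part built in. The part of these markers in the *Aqp4* level was not tested. The 3 genes whose log2 CPM was most like that of *Aqp4* over the 8 mice were *Slc28a3* (Pearson r = 0.980), *Entpd5* (0.972) and *Mss51* (0.969), the last a gene of skeletal muscle.

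**Figure D2:**
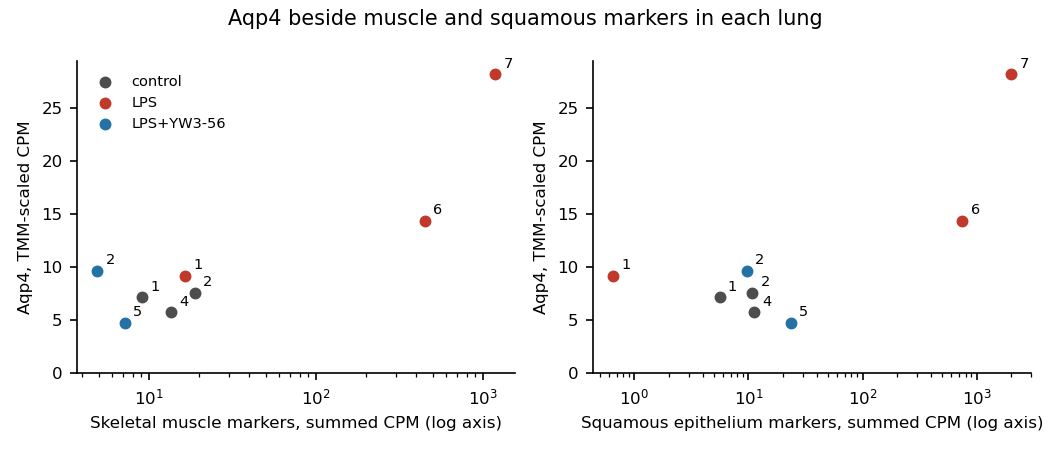
*Aqp4* in TMM-scaled CPM (vertical axes) against the summed CPM of skeletal muscle markers (left) and squamous epithelium markers (right; both horizontal axes logarithmic) in each of the 8 lungs, with mouse numbers. LPS mice 6 and 7 lie apart from the other 6 on both axes. In *Aqp4*, LPS mouse 1, at 9.20 CPM, lies above the control mice and below dual-treated mouse 2. It lies within the control range in muscle markers and lowest of all in squamous markers.

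Of the 9 other aquaporin genes listed, 5 had enough counts to be tested. With LPS 2 rose and 1 fell, against LPS alone 2 were higher and 1 lower with the dual treatment, and against control 1 was higher and 0 lower by edgeR. *Aqp3*, a water and glycerol channel of basal and squamous cells, had 3.28, 4.36 and 2.12 CPM in control mice, 11.0, 40.3 and 62.3 CPM in LPS mice 1, 6 and 7, and 3.63 and 1.32 CPM in dual-treated mice. It was above the controls in LPS mouse 1 as well, where squamous markers were lowest. *Aqp3* rose with LPS (log2FC 3.54, SE 0.61, adjusted p = 0.000646), and with LPS mouse 1 as the only LPS library the log2FC was 1.76. *Aqp11*, an aquaporin of internal membranes, had 2.79, 3.52 and 1.66 CPM in control mice, 0.119, 0.924 and 0.502 CPM in LPS mice, and 2.18 and 3.56 CPM in dual-treated mice. It fell with LPS (log2FC -2.35, adjusted p = 0.00469) and was higher with the dual treatment than with LPS (log2FC 2.46, adjusted p = 0.00617), at 2 to 16 counts per LPS library. With LPS mouse 1 as the only LPS library the values were -4.41 and 4.52. *Aqp2*, *Aqp7* and *Aqp9* averaged at most 2 CPM in any group. The other gene that rose with LPS was *Aqp9*, a call lost under 6 of 14 alternatives, among them leaving out LPS mouse 6 or 7. The 1 higher than control with the dual treatment was *Aqp2*, a call lost under 7 of 13, among them leaving out either dual-treated mouse. *Aqp2* had 7 to 13 counts per control library, 3 to 4 per LPS library and 25 to 34 per dual-treated library. Its test thus rested on the group where it is high.

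*Cftr* (ENSMUSG00000041301; chromosome 6, 18170686 to 18322767), the anion channel mutated in cystic fibrosis, had 19.4, 21.8 and 16.8 CPM in control mice, 6.76, 6.01 and 5.14 CPM in LPS mice, and 15.5 and 10.1 CPM in dual-treated mice. The 3 groups did not overlap, with the dual-treated mice in between. It fell 3.24-fold with LPS (log2FC -1.70, SE 0.20, adjusted p = 5.92e-05) and was 2.15-fold higher with the dual treatment than with LPS alone (log2FC 1.10, SE 0.22, adjusted p = 0.002). Against control its dual-treated log2FC was -0.60 (95% interval -1.08 to -0.11, adjusted p = 0.0929). That difference was called lower by DESeq2 (-0.62, adjusted p = 0.0497) and without dual-treated mouse 2 (-0.97, adjusted p = 0.0445), and over 14 alternatives the adjusted p ran from 0.0445 to 0.34.

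Of 18 other genes of chloride and anion transport, all tested, 5 rose and 5 fell with LPS (median log2FC 0.10). Against LPS alone 6 were higher and 6 lower with the dual treatment (median -0.28), and against control 0 were higher by edgeR and 1 lower (median -0.09). *Slc26a9*, a chloride channel of airway epithelium that interacts with *Cftr*, had 85.7, 90.6 and 102 CPM in control mice, 37.0, 30.4 and 36.0 CPM in LPS mice, and 80.8 and 68.7 CPM in dual-treated mice. It moved as *Cftr* did, falling with LPS (log2FC -1.43, adjusted p = 5.86e-06) and standing higher with the dual treatment (log2FC 1.12, adjusted p = 7.17e-05). Of 3 more abundant transporters, *Slc4a2* also fell with LPS (log2FC -0.48), while *Slc12a4* (-0.05) and *Slc12a7* (0.16) were not called. *Nherf1*, a scaffold that holds CFTR at the apical membrane, went the other way, from 102 ± 4 CPM in control to 214 ± 16 CPM in LPS and 114 ± 6 CPM in dual-treated lungs. Its log2FC was 1.07 with LPS (adjusted p = 1.01e-05) and -0.91 for the dual treatment against LPS (adjusted p = 0.000101). *Slc12a2*, the cotransporter that loads epithelial cells with chloride, averaged 176, 180 and 140 CPM in the control, LPS and dual-treated groups and was not called in any comparison by edgeR. DESeq2 called it lower with the dual treatment than with LPS (-0.41, adjusted p = 0.0467), and without dual-treated mouse 2 it was called lower against both LPS (-0.67) and control (-0.65). *Slc26a4*, the anion exchanger pendrin, was singled out after its values were seen. It had 4.35, 3.57 and 4.55 CPM in control mice, 86.0, 59.1 and 32.3 CPM in LPS mice, and 3.70 ± 0.42 CPM in dual-treated lungs, so that all LPS mice were far above the other 5 (log2FC 3.83, adjusted p = 8.42e-06).

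Genes that regulate the sodium channel were described from a list of 18, all tested. With LPS 6 rose and 6 fell (median log2FC -0.01), against LPS alone 6 were higher and 7 lower with the dual treatment (median -0.28), and against control 0 were higher and 2 lower (median -0.21) by edgeR. *Sgk1*, a kinase that keeps the channel at the cell surface, had 115, 108 and 115 CPM in control mice, 788, 569 and 589 CPM in LPS mice, and 203 and 140 CPM in dual-treated mice. The groups did not overlap, with the dual-treated mice nearer to control. Against control the dual-treated log2FC was 0.61 (adjusted p = 0.0517), called higher under 8 of 14 alternatives, DESeq2 among them. *Sgk1* rose with LPS (log2FC 2.53, SE 0.18, adjusted p = 2.69e-06) and was lower with the dual treatment than with LPS (log2FC -1.92, SE 0.20, adjusted p = 4.95e-05). *Nedd4*, a ubiquitin ligase of the family that removes the channel, had 485, 518 and 513 CPM in control mice, 152, 183 and 200 CPM in LPS mice, and 427 and 394 CPM in dual-treated mice. It was lowest in all LPS mice, falling by a log2FC of -1.50 (SE 0.12, adjusted p = 5.86e-06), and it was higher with the dual treatment than with LPS (log2FC 1.20, adjusted p = 6.27e-05). *Furin*, a protease that cleaves the α and γ subunits, rose with LPS from 155 ± 9 to 362 ± 43 CPM (log2FC 1.23, adjusted p = 1.26e-05) and stood at 170 ± 11 CPM with the dual treatment. *Wnk1* and the protease inhibitor *Spint2* were not called with LPS, at log2FC 0.01 (adjusted p = 0.926) and 0.06 (adjusted p = 0.691). *Spint2* was lower with the dual treatment than with LPS (log2FC -0.51), a difference called under 13 of 15 alternatives. Against control its dual-treated log2FC was -0.45, called lower under 4 of 14 alternatives. *Tsc22d3*, a glucocorticoid-induced leucine zipper protein, rose with LPS (log2FC 0.66, adjusted p = 0.0143), a call lost with library size as the only scaling (0.38) and without control mouse 2 (0.54), control mouse 4 (0.60), LPS mouse 6 (0.47) or both LPS mice 6 and 7 (0.39).

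The following regulators were singled out after their values were seen. Among the membrane proteases that activate the channel, *Prss8* and *St14* parted. *Prss8* fell from 124 ± 4 to 36.5 ± 6.5 CPM with LPS (log2FC -1.77, adjusted p = 4.08e-06), and *St14* rose from 71.2 ± 3.7 to 212 ± 12 CPM (log2FC 1.57, adjusted p = 1.46e-06). Of the other membrane proteases listed, *Tmprss2* had 167, 156 and 156 CPM in control mice and 70.4, 62.3 and 79.9 CPM in LPS mice. In dual-treated mice it had 80.1 and 132 CPM, still below all controls. *Tmprss4* overlapped between control and LPS mice. The enzymes that interconvert active and inactive glucocorticoid parted too. *Hsd11b1*, which makes the active hormone, fell from 265 ± 16 to 70.7 ± 12.1 CPM (log2FC -1.90, adjusted p = 2.89e-06), and *Hsd11b2*, which inactivates it, rose from 1.34 ± 0.65 to 17.9 ± 2.3 CPM (log2FC 3.73, adjusted p = 2.85e-05). With the dual treatment *Prss8*, *St14*, *Hsd11b1* and *Hsd11b2* averaged 93.4, 74.8, 233 and 2.02 CPM, each called in the opposite direction against LPS alone. *Nedd4l*, the ligase best known for the sodium channel, had 119, 112 and 110 CPM in control mice, 115, 99.5 and 117 CPM in LPS mice, and 74.0 and 77.8 CPM in dual-treated mice. Both dual-treated mice were below all others, with a log2FC of -0.58 against control (SE 0.11, adjusted p = 0.00631).

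**Figure D3:**
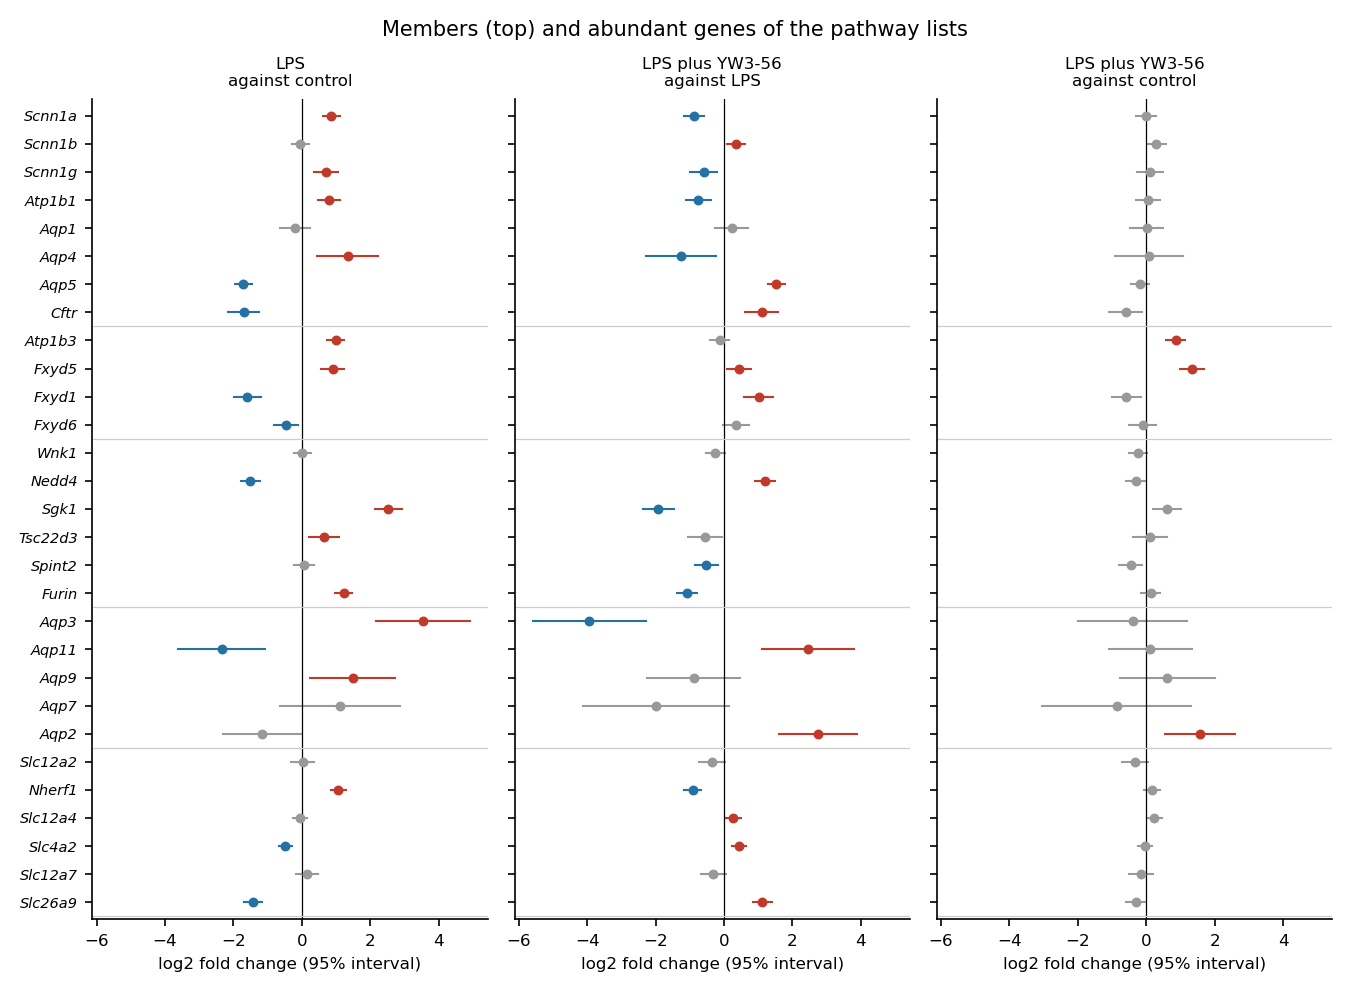
Fitted log2 fold change (horizontal axes, points) with 95% intervals (lines) for the 8 genes at the top and up to 6 abundant genes each of the pump, regulator, aquaporin and anion transport lists below, in 3 comparisons; red is called higher, blue called lower and grey not called at an adjusted p under 0.05. Most genes called with LPS lie on the opposite side of 0 in the comparison of the dual treatment with LPS, and *Atp1b3* and *Fxyd5* are still above control with the dual treatment.

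Other cell types in the lung also changed their markers. Club cell markers (4 genes, *Scgb1a1* the most abundant) summed to 31099, 39335 and 36592 CPM in control mice, 68369, 58304 and 56577 CPM in LPS mice, and 23977 and 26489 CPM in dual-treated mice. The order of group means was that of *Scnn1a*, which airway cells also express. Both dual-treated mice were below all controls here, while for *Scnn1a* they lay within the control range. With LPS 3 of the 4 rose and 1 fell. Among type 2 markers 1 rose and 6 fell, and among 4 ciliated cell markers 1 rose and 1 fell, with a sum of 568 ± 75, 550 ± 40 and 482 ± 45 CPM in the control, LPS and dual-treated groups. All 6 neutrophil markers rose, from a sum of 149 ± 53 to 2272 ± 558 CPM, and the sum was 1980 ± 471 CPM with the dual treatment. Against LPS alone, 3 of these 6 were higher with the dual treatment (*Retnlg*, *Csf3r*, *Cxcr2*) and 1 lower (*Ly6g*), so the sum, mostly *S100a8* and *S100a9*, does not describe each marker. Heart muscle markers (5 genes, *Myh6* the most abundant) summed to 492 ± 255, 492 ± 153 and 158 ± 6 CPM. The part of these shifts in the levels of the 8 genes was not tested.

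Set side by side per kilobase of exon, the 8 genes ranked in control lungs as *Aqp1* (299 CPM per kb), *Aqp5* (159), *Scnn1a* (136), *Atp1b1* (85.7), *Scnn1g* (52.2), *Scnn1b* (45.9), *Cftr* (2.49) and *Aqp4* (1.04), and the values of neighbours in that order did not overlap between mice. In LPS lungs *Scnn1a* (248) reached the range of *Aqp1* (260), *Aqp5* (48.6) fell to the range of *Scnn1b* (44.7), and *Aqp4* (2.63) was above *Cftr* (0.769). In dual-treated lungs *Aqp1* (303) was followed by *Aqp5* (141) and *Scnn1a* (135), which overlapped between mice, and then by *Atp1b1* (88.7). *Scnn1b* and *Scnn1g* both stood at 56.5 CPM per kb there.

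The place of each dual-treated mouse between the control mean (0) and the LPS mean (1) was computed on log2 CPM for the genes that were called with LPS. Mouse 2 lay at 0.05 for *Scnn1a*, -0.07 for *Scnn1g*, 0.32 for *Atp1b1*, 0.43 for *Aqp4*, 0.19 for *Aqp5* and 0.18 for *Cftr*. Mouse 5 lay at -0.07, 0.39, -0.24, -0.42, 0.02 and 0.55 for the same genes. Of these values, that of *Cftr* in mouse 5 was the only one closer to the LPS mean than to the control mean. The value of *Aqp4* in mouse 2 depended on the LPS mice, and was 0.67 without LPS mouse 7 and 1.16 without LPS mice 6 and 7.

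Genes most like each member over the 8 mice, by Pearson's r of log2 CPM among 15613 genes, are given as a description, since the mice fall into 3 groups. They were *Usp7* for *Scnn1a* (r = 0.9985), *Polr2j* for *Scnn1g* (0.987), *B3gnt8* for *Scnn1b* (0.963), *Rnf103* for *Atp1b1* (0.993), *Gdpd5* for *Aqp1* (0.962), *A730017L22Rik* for *Aqp5* (0.9996) and *Acadsb* for *Cftr* (0.990). Among the members themselves, *Scnn1a* and *Atp1b1* had an r of 0.965 and *Aqp5* and *Cftr* an r of 0.912, while *Scnn1a* and *Aqp5* had -0.976.

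Promoters were looked up because some of the 8 genes rose together with LPS and others fell. RefSeq's promoter table (build GRCm38.p6) held 6 of the 8, *Scnn1b*, *Scnn1g*, *Atp1b1*, *Aqp1*, *Aqp5* and *Cftr*. The 250 bases before the start given in that table were searched on both strands for an NF-κB motif of 10 letters, TGANTCA (AP-1), TTGCNNAA (C/EBP), AGAACA (part of the glucocorticoid receptor element), CAAGTG (NKX2-1) and GGGCGG (a GC box). Among all 32851 promoters in the table they occurred in 5%, 6.75%, 9.56%, 16.1%, 11.6% and 32.7%. The GC box was found in all 6, with 6 matches in *Cftr*, 2 each in *Scnn1g*, *Atp1b1* and *Aqp5*, and 1 each in *Scnn1b* and *Aqp1*. The windows of *Scnn1b*, *Atp1b1* and *Aqp5* lie wholly in annotated exons of GRCm39, those of *Aqp1* and *Scnn1g* hold 216 and 157 exon bases, and those of *Scnn1b* and *Aqp5* lie inside the gene as given above. CAAGTG was found in *Scnn1g*, and the other 4 motifs had no match in these windows, which says only that those letters are not there. The *Cftr* window is shown because it holds the most matches and lies outside every annotated exon. It matches GRCm39 at chr6:18170436-18170685 on the plus strand, has 76.4% G and C, and is written 5′ to 3′ with the GC boxes, some of them overlapping, in capitals.
Cftr: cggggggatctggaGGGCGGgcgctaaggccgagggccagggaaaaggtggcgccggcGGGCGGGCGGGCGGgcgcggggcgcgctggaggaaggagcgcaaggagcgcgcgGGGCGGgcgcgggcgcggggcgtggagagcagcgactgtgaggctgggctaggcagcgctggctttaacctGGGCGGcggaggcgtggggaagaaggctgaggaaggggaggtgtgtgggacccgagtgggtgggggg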

How the data were processed

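The authors checked and trimmed reads (FastQC 0.11.9, Trim Galore), aligned them to GRCm39 with HISAT2 2.2.1, counted them per gene with featureCounts 2.0.1 and deposited raw counts for each of 8 libraries, per the methods and the submitters' processing notes. Strand setting, annotation release and the handling of multimapping reads are not given in the sources used here, so genes overlapped on the other strand (*Scnn1a*, *Atp1b1*, *Aqp5* and *Cftr*) are less certain. Of 55416 identifiers, 54749 matched GENCODE M39, which gave symbols, coordinates and union exon lengths. The older symbol Slc9a3r1 was read as *Nherf1*, and Lor matched no gene.

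Counts were fitted with edgeR 4.0.16 in R 4.3.3 (TMM scaling, filterByExpr, quasi-likelihood F test, 1 group factor, all 8 libraries, 5 residual degrees of freedom), with Benjamini-Hochberg adjustment over 18560 genes. Calls are at an adjusted p under 0.05, intervals are 95%, and log2 CPM used a prior count of 2. The procedure was checked on simulated counts in which few genes changed, as many up as down. That check does not cover scaling where most genes are called, as they were here with LPS. Alternatives were DESeq2 1.42.0, 2 other scalings, 2 filters, fits of only the groups compared, the study's criterion (fold change over 2 and unadjusted p under 0.05), and leaving out mice. Text names the 8 members, up to 6 of the most abundant tested genes of each pathway list, the 3 genes most like each member among those with a mean of at least 1 CPM, and genes marked as singled out. Some listed genes are not reported here and were taken out of their lists and the list counts. Members and lists were chosen with earlier results of these data known.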

Additional observations from a re-analysis of the deposited data

How the results depend on the processing

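*Scnn1a*, *Atp1b1*, *Aqp5* and *Cftr* kept their direction and their calls with LPS, and for the dual treatment against LPS, under all 15 alternative fits, as *Scnn1g* did with LPS. Among all alternatives for single members, 20 lost and 6 gained a call. Library size as the only scaling shifted the median log2FC of all genes by -0.285 with LPS and by 0.325 for the dual treatment against LPS, and moved the share of higher genes among those called from 48.97% to 35.63% and from 53.6% to 70.98%. With it 4 members were called lower with LPS (*Scnn1b* and *Aqp1* added) and 2 lower with the dual treatment against LPS. *Wnk1* (-0.278), *Slc12a4* (-0.335), *Nedd4l* (-0.326) and *Aqp2* (-1.45) were then also called lower with LPS. The member calls relative to the shifted median were not tested. The study's criterion, and a fold change over 2 with an adjusted p, each left 1 member higher with LPS and 1 lower with the dual treatment against LPS, since they ask for a larger change. In both cases it was *Aqp4*, whose calls rest on LPS mouse 7. DESeq2 called 1 member lower with the dual treatment against control, and leaving out 1 mouse at a time gave 0 to 1. With LPS mouse 1 as the only LPS library, it is assumed to vary like the other groups. Over all genes, 2997 were called between dual-treated and control lungs, and 1220 to 3601 when 1 mouse was left out. No paired analysis was possible because the groups share at most 1 replicate number. *Aqp4* and *Cftr* rest on the fewest counts of the 8 genes.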
